A study of Mus musculus with 18 samples.

Results

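The 45 genes described here encode the working parts of the lysosome. They comprised 10 proteases, 6 glycosidases, 5 proteins of lipid degradation including progranulin, 2 acid phosphatases, 5 nucleases, 8 membrane proteins, 6 proteins of the proton pump and 3 transcription factors. They were listed by name and function, with earlier results of these data known. All 45 were found among the 20615 genes of the count table, and all 45 were among the 15789 genes that passed the filter on low counts.

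The lysosome is the acidic compartment in which macrophages digest what they engulf. Its hydrolases work at the low pH that the vacuolar proton pump maintains, and its membrane proteins carry sugar chains that face the lumen and shield the membrane from those enzymes. Phagosomes that hold an apoptotic cell fuse with lysosomes, where nucleases degrade the DNA and RNA of the dead cell, nucleic acids that Toll-like receptors of the same compartments can otherwise sense. TFEB, TFE3 and MITF are related transcription factors that bind E-boxes with the core CACGTG, which lie in the promoters of many lysosomal genes.

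Bone marrow-derived macrophages (BMDMs) were grown with M-CSF from L929 cell supernatant from the marrow of female mice of 7 to 12 weeks. The strains were C57BL/6 (B6) and C57BL/6.NOD-Aec1Aec2 (SjSS), a Sjögren's syndrome model that carries NOD intervals on the B6 background. Control BMDMs received no treatment. AC treated BMDMs received apoptotic cells, which were thymocytes killed with dexamethasone, at 5 per BMDM for 2 h and were kept for 3 h after the wash by the labels, although the study's methods give a longer interval. CpG treated BMDMs received 1 µM of CpG oligonucleotide, an agonist of TLR9, for 6 h. Each of the 6 groups held 3 samples. Each strain was represented by 3 mice. The sources used here do not state whether equal sample numbers mark a shared mouse, nor which strain's thymocytes were given. The p values therefore describe the spread between these samples, and a difference between AC treated strains may include a difference between the thymocytes, which cannot be told apart here.

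Total counts ran from 30688288 to 57139640 per sample, with a median of 47912516, and every member had counts in every group. The macrophage markers Adgre1, Itgam, Csf1r, Fcgr1, Mertk, Cd14 and Lyz2 were all detected in all groups, with summed levels of 14301 to 23162 CPM, which are counts per 1000000 of a sample's TMM-scaled total. Of 12 thymocyte markers 2 passed the filter on low counts, and the summed level of all 12 was 4.41 to 5.08 CPM in AC treated B6 and 13.5 to 18.1 CPM in AC treated SjSS BMDMs, against 7.91 to 11.5 CPM in control BMDMs. Cd4 made up most of that sum (1429 counts over the 3 control B6, 529 over the AC treated B6, 1482 over the control SjSS and 1830 over the AC treated SjSS samples). The other thymocyte markers had few counts. All of them except Cd3e had more counts in AC treated than in control B6 samples, whereas between the SjSS groups they went both ways. Rag1 had 0, 24, 0 and 3 counts over the control B6, AC treated B6, control SjSS and AC treated SjSS samples. In the same order Dntt had 0, 18, 2 and 1, Themis 1, 10, 1 and 0, and Cd8a 1, 26, 12 and 10. Bcl11b had 6, 20, 7 and 13, Cd8b1 2, 14, 4 and 9, and Trac 0, 4, 8 and 7. Lck had 21, 39, 21 and 86, Cd3g 4, 8, 4 and 14, Cd3e 9, 6, 5 and 4, and Cd3d 5, 6, 6 and 4. Cd8a had 19 counts over the CpG treated B6 samples, which received no thymocytes. The part of thymocyte RNA in the results was not tested. Counts were scaled by TMM, whose factors were 0.833 to 0.838 in AC treated SjSS samples and 1.06 to 1.13 in control samples of both strains. When library totals were used without TMM, the median log2 fold change of all tested genes moved from -0.02 to -0.43 in the AC response of SjSS BMDMs, from -0.05 to -0.35 in the difference between AC treated strains and from -0.01 to -0.35 in the interaction of strain and AC. The median of the members shifted with it and stayed 0.14 (TMM) and 0.15 (library totals) above that of all genes in the AC response of SjSS BMDMs. The sign of the log2 fold change changed between the scalings for 23, 21 and 24 members in these comparisons in turn, whether or not they passed. Directions in those 3 comparisons are relative to the median gene. In bulk RNA, a smaller number of cells of a type and less RNA per cell cannot be told apart.

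Before the values, the promoter stretches of 6 members are shown, since they carry the E-boxes by which TFEB, TFE3 and MITF are known to act. A 300-base RefSeq promoter window (GRCm38.p6) was at hand for 39 of the 45 members. The core CACGTG lay in a window of 11 of them (28.2%), against 8.09% of 27025 genes. The longer form TCACGTGA lay in 6 members (15.4%), against 1.12% of all genes. Each motif is its own reverse complement, so both strands were covered, and the longer form contains the shorter one. The 11 genes were Ctsa, Ctsd, Ctsl, Lgmn, Gaa, Glb1, Lamp1, Cln3, Mcoln1, Atp6v0d1 and Atp6v1a. Capitals mark each CACGTG, and every sequence reads 5′ to 3′ on the strand of its gene.
Ctsa (chr2:164833741-164833802, plus strand): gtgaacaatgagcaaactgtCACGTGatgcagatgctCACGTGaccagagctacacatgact
Lamp1 (chr8:13159080-13159171, plus strand): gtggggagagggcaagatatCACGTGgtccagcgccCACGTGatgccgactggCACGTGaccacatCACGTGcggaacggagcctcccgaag
Cln3 (chr7:126583332-126583405, minus strand): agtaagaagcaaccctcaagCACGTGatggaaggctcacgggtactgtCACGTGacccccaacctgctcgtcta
Mcoln1 (chr8:3500428-3500499, plus strand): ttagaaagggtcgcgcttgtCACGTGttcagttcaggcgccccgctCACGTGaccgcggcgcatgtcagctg
Atp6v0d1 (chr8:105566042-105566087, minus strand): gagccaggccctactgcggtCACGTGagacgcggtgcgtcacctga
Atp6v1a (chr16:44139365-44139410, minus strand): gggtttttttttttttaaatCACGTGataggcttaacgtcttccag
Lamp1 held 4 cores within its stretch, Ctsa, Cln3 and Mcoln1 held 2 each, and the pump genes Atp6v0d1 and Atp6v1a held 1 each. Some genes had more than 1 window. For Ctsa, Cln3 and Lgmn the cores lay in a window further inside the gene, and the window at the annotated gene start held none. No window of the 5 nucleases, the 2 acid phosphatases or the 3 transcription factors held the core. These matches are letters and not measured binding. Ctsb, Ctsh, Asah1, Atp6v0d2, Atp6v1b2 and Atp6v1h had no window.

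In control BMDMs the members spanned more than 3 orders of magnitude in level per exon length. Ctsd, the aspartic protease of lysosomes, and Psap, the precursor of the saposins that activate sphingolipid hydrolases, were highest. Ctsd had 6670.0 ± 762 CPM per kb in control B6 and 7190.2 ± 197 in control SjSS BMDMs (mean ± SD, n = 3). Psap had 5456 ± 419 and 5181 ± 59.4 CPM per kb. The cysteine protease Ctsb followed with 1757 ± 167 CPM per kb in control B6, then the membrane glycoprotein Gpnmb with 1335 ± 186, whose 3 samples lay below those of Ctsb. At the low end of control B6 BMDMs, Smpd1, Tfeb and Mcoln1 had 7.30 ± 0.375, 7.34 ± 0.767 and 7.75 ± 0.813 CPM per kb, and these neighbours overlapped. Ctsk, a collagen-degrading protease known for its role in osteoclasts, was lowest with 1.72 ± 0.175 CPM per kb in control B6 and 0.83 ± 0.162 in control SjSS BMDMs. Within the other roles the highest members over all samples were Hexa, Acp2, Pld3, Atp6v1b2 and Tfe3.

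**Figure D1:**
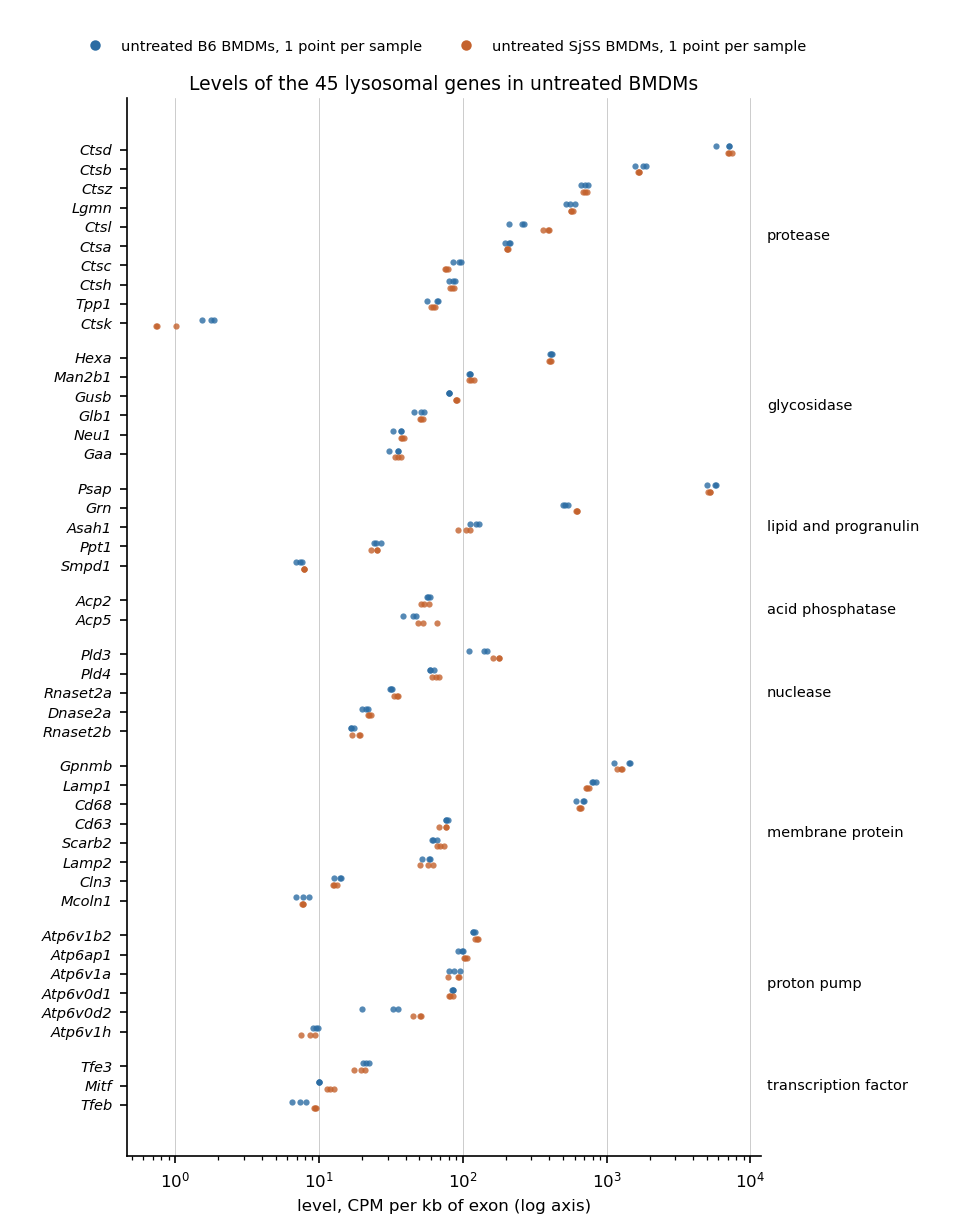
Level of each of the 45 genes in control BMDMs, in CPM per kb of exon on a log axis, with 1 point per sample, blue for B6 and orange for SjSS, in 8 roles. Ctsd and Psap lie highest and Ctsk lowest, and most genes have overlapping samples of both strains.

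The question of the AC treatment was how BMDMs of each strain responded to apoptotic cells. In B6 BMDMs 8 members rose and 15 fell, and 22 did not pass the test, which was an adjusted p under 0.05 by edgeR. Over all tested genes 20% rose and 18.3% fell, and 38.3% changed in either direction. The members that rose were the proteases Ctsl, Ctsz and Lgmn, the acid phosphatases Acp2 and Acp5, the pump gene Atp6v1h and the factors Mitf and Tfe3. The members that fell included 3 of 6 glycosidases, 3 of 5 lipid genes, 2 of 5 nucleases and 4 of 8 membrane proteins. No member passed the test with a log2 fold change over 1.3 in size, the threshold of the study's methods, which 2.43% of all genes passed upward and 2.04% downward. The median log2 fold change of the members was -0.08, against 0.00 for all genes. With library totals 22 of the 23 calls were kept and Tfe3 was lost. When each of the 6 samples was left out in turn 14 calls were kept throughout, and those of Acp5, Atp6v0d2, Glb1, Gpnmb, Lamp1, Lamp2, Lgmn, Rnaset2b and Tfe3 were lost at least once.

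In SjSS BMDMs given ACs, Ctsc, Rnaset2b and Mitf rose past the fold threshold. With TMM scaling 21 members rose, 7 fell and 17 did not pass, where 28.6% of all tested genes rose, 29.4% fell and 58% changed in either direction. With library totals 8 members rose and 33 fell, where the median of all genes was -0.43. Shares of all genes were not counted with library totals. The members that rose under both scalings were Ctsc, Ctsz, Acp2, Acp5, Rnaset2a, Rnaset2b, Atp6v1h and Mitf. Those that fell under both were Gusb, Smpd1, Dnase2a, Scarb2, Mcoln1, Atp6v1b2 and Tfeb. A further 10 (Ctsh, Hexa, Grn, Pld4, Lamp1, Cd63, Cd68, Atp6v0d1, Atp6v1a and Atp6ap1) rose with TMM and fell with library totals, and Ctsb, Lamp2 and Cln3 rose with TMM and did not pass with library totals. The 3 members past the fold threshold compare with 7.09% of all genes, and no member fell past it, where 5.83% of all genes did. With library totals none of the 3 passed the fold threshold and Tfeb fell past it. Leaving out each sample in turn kept 23 of the 28 calls throughout, and those of Atp6ap1, Atp6v1a, Cd63, Grn and Smpd1 were lost at least once. The median log2 fold change of the members was 0.13, against -0.02 for all genes.

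The AC responses of the strains were compared by the interaction of strain and AC, which is the response in SjSS minus that in B6 BMDMs. With TMM scaling it was higher for 20 members and lower for 4, and 21 did not pass, where 19.6% of all tested genes were higher, 18.3% lower and 37.9% either. With library totals it was higher for 6 members and lower for 13, where the median of all genes was -0.35 and their shares were not counted. Ctsc, Man2b1, Rnaset2a, Rnaset2b, Lamp2 and Mitf were higher and Ctsl, Atp6v1b2, Tfeb and Tfe3 lower under both scalings. Ctsc and Rnaset2b were past the fold threshold with TMM, which 4.76% of all genes passed upward, and no member was past it downward, where 2.77% of all genes were. With library totals neither was past it. The calls of Acp2, Atp6v1h, Ctsz, Glb1 and Tfe3 were each lost when at least 1 sample was left out.

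In the CpG response most members fell in both strains. In B6 BMDMs 29 fell, 11 rose and 5 did not pass, where 29.8% of all tested genes fell, 28.1% rose and 57.9% changed in either direction. In SjSS BMDMs 30 fell, 9 rose and 6 did not pass, where 26.4% of all tested genes fell, 27.8% rose and 54.2% changed. The median log2 fold change of the members was -0.37 in B6 and -0.36 in SjSS BMDMs, against -0.04 and -0.01 for all genes. All 5 lipid genes fell in each strain, as did 7 of 10 proteases, 5 of 6 glycosidases and 6 of 8 membrane proteins. The members that rose in each strain were Ctsc, Ctsz, Acp2, Acp5, Rnaset2a, Rnaset2b, Atp6v1h, Tfe3 and Mitf. Scarb2 and Atp6v0d2 fell past the fold threshold in B6 BMDMs, which 6.88% of all genes did, and Atp6v0d2 did so in SjSS BMDMs, where 4.45% did. No member rose past it, which 5.86% of all genes did in B6 and 4.81% in SjSS BMDMs. With library totals 38 of 40 calls in B6 and 38 of 39 in SjSS BMDMs were kept. The interaction of strain and CpG was higher for Pld4 and lower for Mitf, and 43 members did not pass, where 3.23% of all tested genes were higher, 2.62% lower and 5.85% either. With the replicate number as a block, which the pairing of control and CpG treated B6 samples bears on, it was also lower for Ctsd, Neu1, Acp5 and Atp6ap1, so that 5 were lower. The AC and CpG responses of a strain share its 3 control samples.

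**Figure D2:**
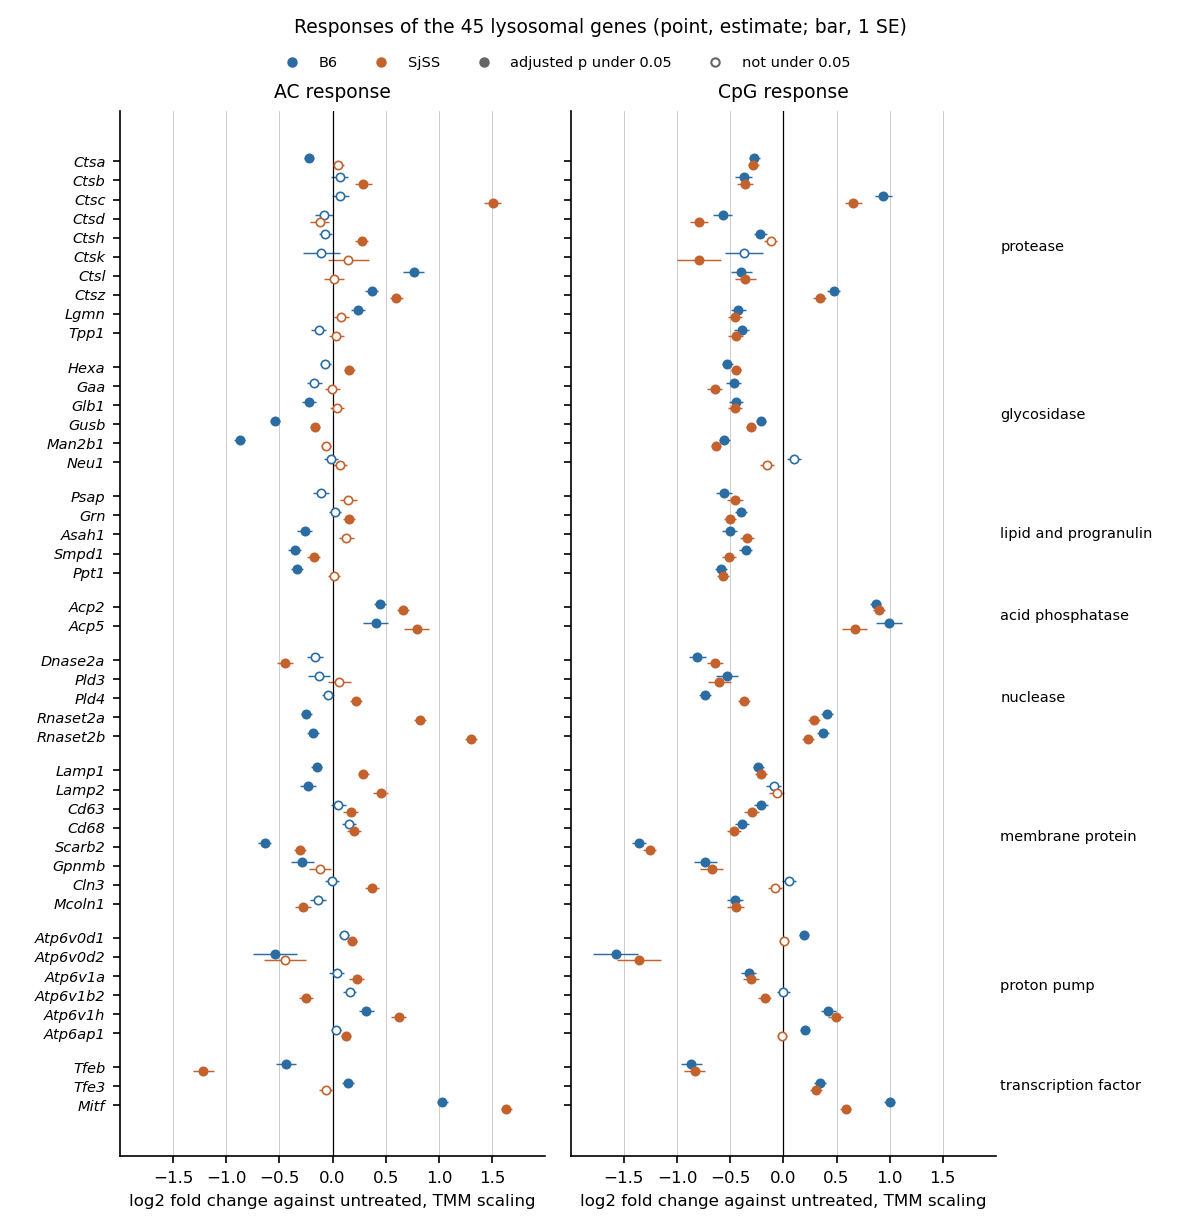
Log2 fold change against control of each of the 45 genes with TMM scaling, with bars of 1 SE, in the AC response (left) and the CpG response (right), blue for B6 and orange for SjSS, filled where the adjusted p was under 0.05. Most genes lie left of 0 in both CpG responses, and in the AC response 21 filled SjSS points lie right of 0 with TMM. With library totals 33 members fell in that comparison, where the median of all tested genes was -0.43.

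Among the proteases, Ctsc rose with ACs in SjSS and Ctsl in B6 BMDMs. Ctsc (chr7:88278085-88310889, mm10) encodes dipeptidyl peptidase 1, which activates serine proteases of granules by trimming them. Its level was 564, 551 and 495 CPM in control B6, 509, 578 and 605 with AC and 1123, 1024 and 943 with CpG. It was 458, 446 and 434 CPM in control SjSS, 1240.3, 1265 and 1295 with AC and 721, 637 and 755 with CpG. With TMM scaling all AC treated SjSS samples lay above every other sample, whereas control and AC treated B6 samples overlapped. With library totals the AC treated SjSS samples overlapped the CpG treated B6 samples. The AC response was a 2.84-fold rise in SjSS BMDMs (log2 fold change 1.51, SE 0.08, adjusted p = 4.75e-12) and a log2 fold change of 0.07 ± 0.08 (SE) in B6 BMDMs that did not pass (adjusted p = 0.506). The responses differed by 1.43 ± 0.11 (adjusted p = 7.18e-09), and by 1.09 with library totals. CpG raised Ctsc in both strains (0.94 ± 0.08 in B6 and 0.66 ± 0.08 in SjSS BMDMs, adjusted p = 4.25e-09 and 7.03e-07), and the difference of these responses did not pass (adjusted p = 0.143).

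Ctsl, a broad cysteine endopeptidase, was described after its values were seen. It had 1359, 1719 and 1674 CPM in control B6 BMDMs and 2872, 2406 and 2773 with AC. It had 2526, 2572 and 2350.1 CPM in control SjSS and 2504, 2671 and 2334 in AC treated SjSS BMDMs. The control SjSS samples lay above all control B6 samples, and with TMM scaling the AC treated samples of both strains overlapped. With library totals the AC treated samples did not overlap, and Ctsl was lower in AC treated SjSS than in AC treated B6 BMDMs. Ctsl rose 1.69-fold with ACs in B6 BMDMs (log2 fold change 0.76, SE 0.10, adjusted p = 4.52e-06), and the interaction was negative (log2 fold change -0.75, SE 0.14, adjusted p = 0.000248). In the AC response of SjSS BMDMs its log2 fold change was 0.01 ± 0.10 with TMM and -0.40 with library totals. CpG treated BMDMs had 1040.0, 1257 and 1317 CPM in B6 and 2059, 1895 and 1864 in SjSS, lower than control in each strain (-0.39 ± 0.10 and -0.36 ± 0.10, adjusted p = 0.00168 and 0.00409). The strain difference passed in control (0.65, adjusted p = 0.000111) and in CpG treated BMDMs (0.69, adjusted p = 4.94e-05).

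Ctsd had 13613, 16644 and 16787 CPM in control B6, 13854, 15614 and 14971 with AC and 9137, 11665 and 10848 with CpG. In SjSS BMDMs Ctsd had 16563, 16717 and 17433 in control, 15528, 15762 and 15291 with AC and 9595, 10135 and 9558 with CpG. The CpG treated samples were the lowest of each strain, and Ctsd fell 1.49-fold in B6 (log2 fold change -0.57, SE 0.09, adjusted p = 1.23e-05) and 1.73-fold in SjSS BMDMs (log2 fold change -0.79, SE 0.09, adjusted p = 2.58e-07). Neither AC response passed with TMM and no block (adjusted p = 0.497 and 0.237). Ctsd fell in SjSS BMDMs with the replicate number as a block, and also with library totals (log2 fold change -0.54). Ctsk (chr3:95499256-95509363, mm10) differed by strain. It had 2.83, 2.32 and 2.66 CPM in control B6, 2.64, 2.10 and 2.54 with AC and 1.87, 1.68 and 2.50 with CpG. In SjSS BMDMs Ctsk had 1.11, 1.54 and 1.12 in control, 1.32, 1.35 and 1.46 with AC and 0.72, 0.642 and 0.776 with CpG, so that within each treatment the samples of the strains did not overlap. It was 2.10-fold lower in control (log2 fold change -1.07, SE 0.19, adjusted p = 0.0005), 1.76-fold lower in AC treated (log2 fold change -0.82, SE 0.19, adjusted p = 0.00127) and 2.83-fold lower in CpG treated SjSS BMDMs (log2 fold change -1.50, SE 0.20, adjusted p = 3.27e-05), past the fold threshold in the last. Summed levels of the fibroblast markers Col1a1, Col3a1, Col1a2 and Dcn were 38 to 131 CPM over all B6 and 147 to 231 CPM over all SjSS samples, and those of 9 osteoclast markers were 175 to 455 and 249 to 466 CPM. Of the osteoclast markers, Oscar and Calcr did not pass the filter on low counts, and Mmp9 and Tnfrsf11a made up most of the sum. These went opposite ways between the strains. Tnfrsf11a had 19888, 14983 and 19044 counts over the control, AC and CpG treated B6 samples and 8237, 9028 and 9262 in SjSS. Mmp9 had 10861, 6621 and 36401 counts in B6 and 21787, 30355 and 38694 in SjSS. The part of those cell types in Ctsk was not tested.

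The glycosidases, which trim sugars from glycoproteins, glycolipids and glycogen, fell with ACs in B6 BMDMs for Man2b1, Gusb and Glb1. Man2b1, the lysosomal alpha-mannosidase, had 904, 886 and 900.1 CPM in control B6 BMDMs and 502, 501 and 465 with AC. In SjSS BMDMs Man2b1 had 884, 919.5 and 957 in control and 869.9, 889.6 and 887 with AC. The 3 AC treated B6 samples lay below all other control and AC treated samples, a 1.83-fold fall (log2 fold change -0.87, SE 0.05, adjusted p = 1.48e-10). The log2 fold change in SjSS BMDMs was -0.06 ± 0.05 with TMM and did not pass (adjusted p = 0.311), whereas with library totals Man2b1 fell there with -0.48 (adjusted p = 1.34e-07). The interaction was 0.81 ± 0.07 (adjusted p = 3.25e-08), and 0.47 with library totals. With CpG it had 600.4, 635 and 596 CPM in B6 and 571, 604 and 605 in SjSS BMDMs, which overlapped between strains and lay below control (-0.56 ± 0.05 and -0.63 ± 0.05, adjusted p = 1.31e-08 and 2.73e-09). Hexa, the alpha subunit of the beta-hexosaminidase that degrades GM2 ganglioside, had 812, 831 and 823 CPM in control B6, 782, 801 and 771 with AC and 543, 597 and 572 with CpG. In SjSS BMDMs Hexa had 825, 795 and 807 in control, 929, 912 and 865 with AC and 601, 616 and 566 with CpG. The CpG treated samples were the lowest of each strain. Hexa fell with CpG in each strain (-0.53 ± 0.05 and -0.44 ± 0.05, adjusted p = 3.13e-08 and 3.98e-07), and in the AC response of SjSS BMDMs its log2 fold change was 0.16 with TMM (adjusted p = 0.0118) and -0.26 with library totals. Neu1, a sialidase, passed in neither CpG response with TMM and no block, and with the replicate number as a block it fell in SjSS BMDMs.

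The lipid genes fell together with CpG. Psap had 13649, 15734 and 15534 CPM in control B6, 13275, 14738 and 13571 with AC and 8973, 11172 and 10316 with CpG. In SjSS BMDMs Psap had 14286, 14332 and 14029.6 in control, 16575, 15528 and 15159 with AC and 10485, 10691 and 9877 with CpG. All CpG treated samples lay below all control and AC treated samples, falls of 1.47-fold in B6 (log2 fold change -0.56, SE 0.08, adjusted p = 4.05e-06) and 1.37-fold in SjSS BMDMs (log2 fold change -0.46, SE 0.08, adjusted p = 5.12e-05). Neither AC response of Psap passed with TMM and no block (adjusted p = 0.283 and 0.109). In SjSS BMDMs Psap rose with the replicate number as a block and fell with library totals. Smpd1, the acid sphingomyelinase that releases ceramide, had 23.0, 25.5 and 24.5 CPM in control B6 and 17.4, 20.2 and 19.4 with AC. In SjSS BMDMs Smpd1 had 26.2, 26.5 and 26.3 in control and 23.4, 23.7 and 22.5 with AC, and in each strain the 3 AC treated samples lay below the control samples. It fell in B6 (log2 fold change -0.36, SE 0.06, adjusted p = 0.000144) and in SjSS BMDMs (log2 fold change -0.18, SE 0.06, adjusted p = 0.0195), where without AC treated SjSS sample 3 the call was lost (log2 fold change -0.15, adjusted p = 0.0858). With CpG it had 18.5, 19.3 and 19.4 CPM in B6 and 19.0, 17.9 and 18.4 in SjSS BMDMs, below the control samples of each strain. The other lipid genes were Grn, which encodes progranulin, Asah1, the acid ceramidase, and Ppt1, a thioesterase that removes palmitate from proteins. Ppt1 and Asah1 fell with ACs in B6 BMDMs, and in SjSS BMDMs they did not pass with TMM and fell with library totals (-0.40 and -0.28).

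Both acid phosphatases rose in all 4 responses. Acp2, the ubiquitous lysosomal acid phosphatase, had 292, 307 and 298 CPM in control B6, 386, 410.3 and 426 with AC and 546, 551 and 542 with CpG. In SjSS BMDMs Acp2 had 300.5, 277 and 266 in control, 450.5, 434 and 449 with AC and 531, 508 and 533 with CpG. The order of control, AC and CpG was the same in both strains with no overlap between treatments. The rises were 1.36-fold in the AC response of B6 (log2 fold change 0.45, SE 0.05, adjusted p = 1.74e-06) and 1.58-fold in that of SjSS BMDMs (log2 fold change 0.66, SE 0.05, adjusted p = 2.22e-09). With CpG they were 1.83-fold in B6 (log2 fold change 0.87, SE 0.05, adjusted p = 4.63e-11) and 1.86-fold in SjSS BMDMs (log2 fold change 0.90, SE 0.05, adjusted p = 4.06e-11). Acp5, the tartrate-resistant acid phosphatase that marks osteoclasts and some macrophages, had 91.6, 78.4 and 96.3 CPM in control B6, 136, 107 and 109.6 with AC and 198, 163 and 169 with CpG. In SjSS BMDMs Acp5 had 99.9, 108 and 135 in control, 180.0, 197 and 215 with AC and 164, 176 and 205 with CpG. With TMM scaling every treated sample lay above the control samples of its strain. With library totals the AC treated and control SjSS samples overlapped, and Acp5 rose there by 0.37 on the log2 scale (adjusted p = 0.0127). With TMM scaling Acp5 rose in SjSS BMDMs with AC (log2 fold change 0.79, SE 0.12, adjusted p = 1.36e-05) and in both strains with CpG (0.99 ± 0.12 in B6 and 0.67 ± 0.12 in SjSS, adjusted p = 8.14e-07 and 0.0001). Its rise with AC in B6 BMDMs (log2 fold change 0.40, SE 0.12, adjusted p = 0.0118) was lost without control B6 sample 2 (adjusted p = 0.0665) or AC treated B6 sample 1 (adjusted p = 0.085). The summed osteoclast markers were 222 to 244 CPM in control, 175 to 184 in AC treated and 438 to 455 in CpG treated B6 BMDMs, and 249 to 280, 297 to 357 and 380 to 466 CPM in the SjSS groups. The higher sum with CpG came mostly from Mmp9 (10861 counts over the control and 36401 over the CpG treated B6 samples, and 21787 and 38694 in SjSS), whereas Nfatc1 fell from 6881 to 3763 counts and from 7599 to 4343, and Itgb3 from 579 to 262 and from 694 to 384. The part of osteoclast-like cells in Acp5 was not tested.

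The nucleases digest the nucleic acids of engulfed cells, and the T2 ribonucleases stood apart from the rest. Rnaset2a (chr17:8128610-8148098, mm10) and Rnaset2b (chr17:6978860-7011300, mm10) encode secreted and lysosomal endoribonucleases. Of the 100-base windows of their exons, 63.3% in Rnaset2a and 44.3% in Rnaset2b occurred in the other gene, so the estimated counts of each may hold reads of the other. Rnaset2a had 106, 104 and 108 CPM in control B6, 82.7, 98.5 and 87.3 with AC and 136, 146 and 141 with CpG. In SjSS BMDMs Rnaset2a had 112, 116 and 118 in control, 203, 207 and 199 with AC and 139.7, 142 and 139 with CpG. Rnaset2b had 74.2, 77.6 and 74.9 CPM in control B6, 64.6, 66.8 and 68.3 with AC and 93.9, 103 and 96.2 with CpG. In SjSS BMDMs Rnaset2b had 84.6, 75.8 and 85.5 in control, 209, 193 and 205 with AC and 97.3, 95.7 and 96.1 with CpG. For both genes the 3 AC treated SjSS samples were the highest of all 18 and the 3 AC treated B6 samples the lowest.

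Rnaset2b rose 2.47-fold with ACs in SjSS BMDMs (log2 fold change 1.3, SE 0.05, adjusted p = 1.74e-13), and 0.89 on the log2 scale with library totals. In B6 BMDMs it fell with a log2 fold change of -0.18 (adjusted p = 0.0116), a call lost without AC treated B6 sample 1 (adjusted p = 0.0513). The interaction was 1.49 ± 0.08 (adjusted p = 5.3e-11) with TMM and 1.14 with library totals. Rnaset2a moved likewise, with 0.82 ± 0.06 in SjSS (adjusted p = 2.33e-10), -0.25 ± 0.06 in B6 (adjusted p = 0.00163) and an interaction of 1.07 ± 0.08 (adjusted p = 4.58e-09). Between AC treated strains Rnaset2b was 3.04-fold and Rnaset2a 2.27-fold higher in SjSS BMDMs (adjusted p = 4.28e-14 and 3.07e-12). With CpG both rose in each strain, Rnaset2b by 0.37 in B6 and 0.23 in SjSS (adjusted p = 7.67e-06 and 0.0012) and Rnaset2a by 0.41 and 0.29 (adjusted p = 3.19e-06 and 0.000229), and with library totals the rise of Rnaset2b in SjSS BMDMs was lost (adjusted p = 0.112).

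Dnase2a, Pld3 and Pld4 fell with CpG. Dnase2a, the acid endonuclease for engulfed DNA, had 107, 118 and 115 CPM in control B6, 96.4, 105 and 101 with AC and 58.5, 71.4 and 64.0 with CpG. In SjSS BMDMs Dnase2a had 119.9, 118 and 125 in control, 85.5, 94.2 and 86.5 with AC and 75.6, 86.9 and 69.7 with CpG. CpG treated samples were below control samples in both strains (-0.81 ± 0.08 in B6 and -0.64 ± 0.08 in SjSS, adjusted p = 3.71e-08 and 9.85e-07). With ACs it fell in SjSS BMDMs (log2 fold change -0.45, SE 0.08, adjusted p = 6.44e-05), and the response in B6 did not pass in the fit without a block (adjusted p = 0.103). The difference of these responses did not pass with TMM in that fit (adjusted p = 0.0506) and was -0.62 (adjusted p = 0.000112) with library totals. With the replicate number as a block, or with the compared groups fitted alone, both the fall in B6 and the difference passed.

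Pld3 and Pld4 encode exonucleases that shorten single-stranded nucleic acids, ligands of TLR9 among them. Pld3 had 325, 409 and 433 CPM in control B6, 332, 381 and 355 with AC and 223, 305 and 281 with CpG. In SjSS BMDMs Pld3 had 526, 519 and 478 in control, 560.0, 549 and 483 with AC and 342, 347 and 314 with CpG, above the B6 samples within every treatment. Pld3 fell with CpG in B6 (log2 fold change -0.53, SE 0.11, adjusted p = 0.000278) and SjSS BMDMs (log2 fold change -0.60, SE 0.11, adjusted p = 8.56e-05). Its strain difference passed in AC treated BMDMs (log2 fold change 0.58, SE 0.11, adjusted p = 0.000183), whereas that in control BMDMs (log2 fold change 0.38, SE 0.11, adjusted p = 0.0162) was lost without control B6 sample 1 (adjusted p = 0.0901) or without control SjSS sample 2 (adjusted p = 0.0502). Pld4 had 218, 204 and 204 CPM in control B6, 201, 218 and 189 with AC and 124, 124 and 127 with CpG. In SjSS BMDMs Pld4 had 226, 212 and 235 in control, 268, 261 and 254 with AC and 177, 165 and 178 with CpG. The CpG treated B6 samples were the lowest of all. Pld4 fell 1.67-fold with CpG in B6 (log2 fold change -0.74, SE 0.06, adjusted p = 1.58e-09) and 1.29-fold in SjSS BMDMs (log2 fold change -0.37, SE 0.06, adjusted p = 1.55e-05), and it was the single member with a higher interaction of strain and CpG (log2 fold change 0.36, SE 0.08, adjusted p = 0.0104). In the AC response of SjSS BMDMs Pld4 rose by 0.22 with TMM (adjusted p = 0.00271) and fell, with -0.20, with library totals.

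**Figure D3:**
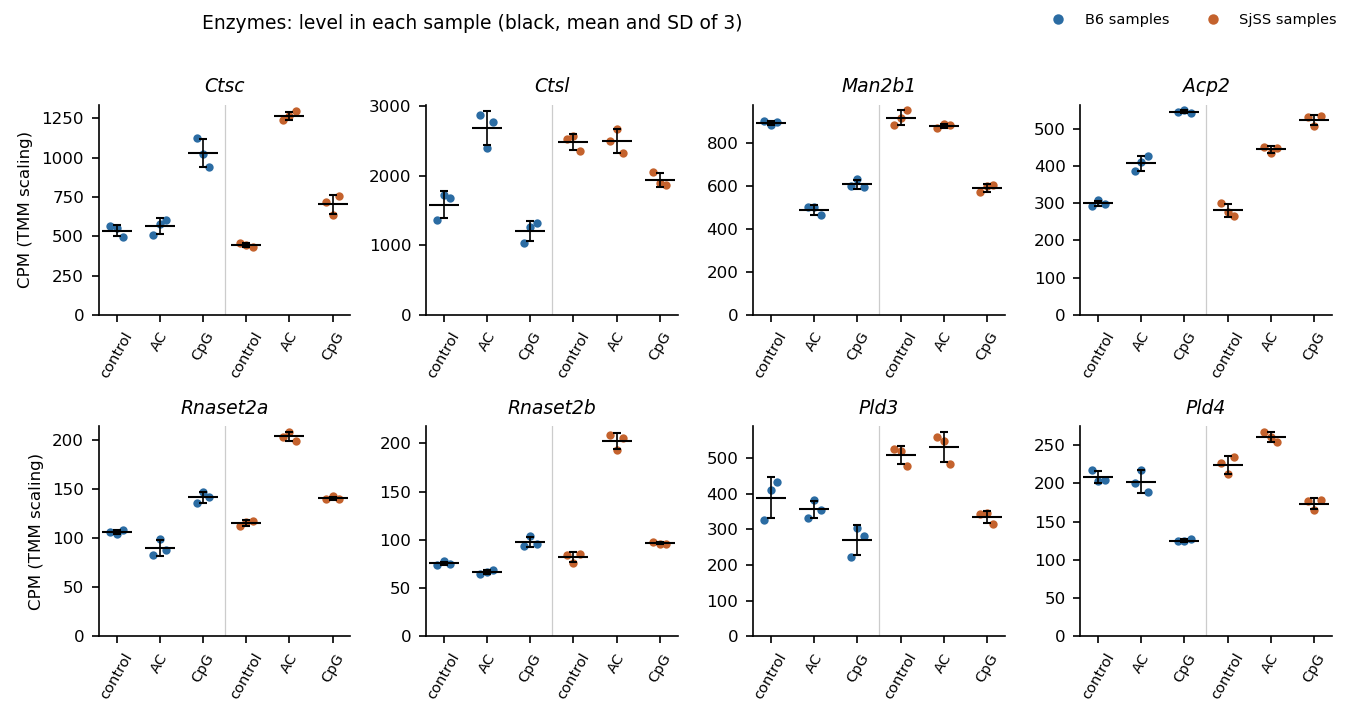
Level in CPM (TMM scaling, axis from 0) of 8 enzyme genes in each of the 18 samples, blue for B6 and orange for SjSS, with the mean and SD of 3 samples in black. Ctsc, Rnaset2a and Rnaset2b are highest in the AC treated SjSS samples, Ctsl is raised by ACs in B6, Man2b1 is lowest in the AC treated B6 samples, and Pld3 and Pld4 are lowest with CpG in each strain.

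Of the membrane proteins, Scarb2 fell in all 4 responses. Scarb2 encodes LIMP-2, the receptor that brings glucocerebrosidase to lysosomes. It had 389, 415 and 385 CPM in control B6, 251, 256 and 257 with AC and 140.5, 163 and 160.4 with CpG. In SjSS BMDMs Scarb2 had 462, 435 and 418 in control, 355, 359.6 and 348 with AC and 195, 181 and 174 with CpG. In each strain control samples were highest and CpG treated samples lowest, with no overlap between treatments. CpG lowered it 2.56-fold in B6 (log2 fold change -1.36, SE 0.06, adjusted p = 7.35e-13) and 2.39-fold in SjSS BMDMs (log2 fold change -1.26, SE 0.06, adjusted p = 3.04e-12). ACs lowered it 1.56-fold in B6 (log2 fold change -0.64, SE 0.06, adjusted p = 1.13e-07) and 1.24-fold in SjSS BMDMs (log2 fold change -0.31, SE 0.06, adjusted p = 0.000216). The AC responses differed by 0.33 with TMM (adjusted p = 0.00479), whereas with library totals the difference was -0.01 and did not pass (adjusted p = 0.922).

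Gpnmb, a glycoprotein of lysosomes and phagosomes, had 7296, 9422 and 9364 CPM in control B6, 6667, 7252 and 7512 with AC and 4261, 5680.3 and 5746 with CpG. In SjSS BMDMs Gpnmb had 8216, 8378 and 7760.2 in control, 7743, 7757 and 6923 with AC and 5101, 5355 and 4801 with CpG. The CpG treated samples were the lowest of each strain. Gpnmb fell with CpG in B6 (log2 fold change -0.73, SE 0.11, adjusted p = 7.46e-06) and SjSS BMDMs (log2 fold change -0.67, SE 0.11, adjusted p = 2.37e-05). Lamp2, which was described after its values were seen, encodes a major glycoprotein of the lysosomal membrane that serves in autophagy. It had 563, 557 and 496 CPM in control B6 and 440.1, 454 and 482 with AC. In SjSS BMDMs Lamp2 had 596, 546 and 483 in control and 743, 732 and 748 with AC, the 3 highest of all samples with TMM scaling. With library totals they overlapped the control samples. The interaction was 0.68 ± 0.10 (adjusted p = 2.71e-05) with TMM and 0.34 (adjusted p = 0.00554) with library totals. In SjSS BMDMs Lamp2 rose by 0.45 with TMM (adjusted p = 2.16e-05), whereas with library totals the change was 0.04 and did not pass. With CpG it had 522, 478 and 517 CPM in B6 and 549, 512 and 494 in SjSS BMDMs, which overlapped control samples in each strain.

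The proton pump genes moved in different directions. Atp6v1h, a regulatory subunit of the cytosolic V1 sector, had 93.3, 96.5 and 88.0 CPM in control B6, 118, 112 and 117 with AC and 132, 122 and 119 with CpG. In SjSS BMDMs Atp6v1h had 90.8, 84.2 and 73.3 in control, 128, 125 and 129.8 with AC and 125, 115 and 109 with CpG, and all treated samples lay above the control samples of their strain. It rose with ACs in B6 (log2 fold change 0.32, SE 0.07, adjusted p = 0.00121) and SjSS BMDMs (log2 fold change 0.62, SE 0.07, adjusted p = 2.95e-07) and with CpG in each strain (0.42 ± 0.07 and 0.49 ± 0.07, adjusted p = 3.34e-05 and 7.1e-06). Atp6v0d2, an isoform of subunit d of the membrane sector that is known from osteoclasts and macrophages, had 54.0, 89.6 and 96.4 CPM in control B6, 52.7, 54.8 and 57.2 with AC and 16.0, 27.1 and 37.5 with CpG. In SjSS BMDMs Atp6v0d2 had 136, 139.6 and 122 in control, 94.6, 99.6 and 97.4 with AC and 51.2, 53.6 and 50.1 with CpG. It was above B6 within every treatment, and control B6 sample 1 lay well below the other control samples. CpG lowered it 2.98-fold in B6 (log2 fold change -1.58, SE 0.21, adjusted p = 2.83e-06) and 2.57-fold in SjSS BMDMs (log2 fold change -1.36, SE 0.21, adjusted p = 1.51e-05). It was 1.77-fold higher in SjSS with AC (log2 fold change 0.82, SE 0.20, adjusted p = 0.00254) and 1.93-fold higher with CpG (log2 fold change 0.95, SE 0.21, adjusted p = 0.00357). The difference in control BMDMs (log2 fold change 0.73, SE 0.20, adjusted p = 0.0162) was lost without control B6 sample 1 (log2 fold change 0.51, adjusted p = 0.079) or control SjSS sample 2 (adjusted p = 0.0502). Of the osteoclast markers given above Nfatc1 and Itgb3 fell with CpG as well and Mmp9 rose, and the part of osteoclast-like cells in Atp6v0d2 was not tested. Atp6v1b2, a B subunit of the V1 sector, had 647, 628 and 628 CPM in control B6, 789.6, 676 and 661 with AC and 671, 619 and 613 with CpG. In SjSS BMDMs Atp6v1b2 had 662, 649 and 677 in control, 532, 577 and 561 with AC and 554, 594 and 611 with CpG. The AC treated SjSS samples lay below all control samples of both strains, and the AC treated B6 samples lay above the control B6 samples. With ACs it fell in SjSS BMDMs (log2 fold change -0.25, SE 0.06, adjusted p = 0.00235), and its interaction was negative (log2 fold change -0.41, SE 0.09, adjusted p = 0.00139).

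The transcription factors diverged from each other. Mitf rose and Tfeb fell in all 4 responses. Mitf (chr6:97807052-98021350, mm10) had 62.5, 61.7 and 62.2 CPM in control B6, 125, 128 and 128 with AC and 129, 118 and 126 with CpG. In SjSS BMDMs Mitf had 79.0, 74.0 and 70.2 in control, 238, 226 and 227 with AC and 112, 116 and 108 with CpG. The AC treated SjSS samples were the highest of all. ACs raised Mitf 3.10-fold in SjSS (log2 fold change 1.63, SE 0.05, adjusted p = 4.34e-15) and 2.04-fold in B6 BMDMs (log2 fold change 1.03, SE 0.05, adjusted p = 2.98e-11), and CpG raised it 2.00-fold in B6 (log2 fold change 1.00, SE 0.05, adjusted p = 4.37e-12) and 1.50-fold in SjSS BMDMs (log2 fold change 0.59, SE 0.05, adjusted p = 1.18e-08). With library totals the AC response in SjSS BMDMs was 1.22. The interaction was 0.60 ± 0.07 with AC (adjusted p = 2.33e-06, and 0.26 with library totals) and -0.41 ± 0.07 with CpG (adjusted p = 0.00212).

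Tfeb had 42.0, 37.1 and 45.8 CPM in control B6, 30.7, 32.3 and 29.0 with AC and 20.7, 23.6 and 24.2 with CpG. In SjSS BMDMs Tfeb had 52.7, 54.5 and 53.1 in control, 21.6, 23.8 and 23.4 with AC and 27.9, 35.8 and 26.2 with CpG. Every treated sample lay below the control samples of its strain. With ACs Tfeb fell 2.33-fold in SjSS (log2 fold change -1.22, SE 0.10, adjusted p = 2.96e-09) and 1.36-fold in B6 BMDMs (log2 fold change -0.44, SE 0.10, adjusted p = 0.00125), and the interaction was negative (log2 fold change -0.78, SE 0.14, adjusted p = 0.000181). With CpG it fell 1.82-fold in B6 (log2 fold change -0.87, SE 0.10, adjusted p = 3.15e-07) and 1.78-fold in SjSS BMDMs (log2 fold change -0.83, SE 0.10, adjusted p = 5.84e-07). With library totals the AC response in SjSS BMDMs was -1.63, past the fold threshold. Tfe3 had 187, 196 and 206 CPM in control B6, 217, 219 and 216 with AC and 249, 253 and 245 with CpG. In SjSS BMDMs Tfe3 had 182, 194 and 163 in control, 166, 173 and 176 with AC and 216, 223 and 226 with CpG, and the AC treated SjSS samples lay below the AC treated B6 samples. Tfe3 rose with CpG in B6 (log2 fold change 0.34, SE 0.06, adjusted p = 3.65e-05) and SjSS BMDMs (log2 fold change 0.30, SE 0.06, adjusted p = 0.000163), and it was lower in AC treated SjSS than in AC treated B6 BMDMs (log2 fold change -0.34, SE 0.06, adjusted p = 5.97e-05). These are RNA levels of factors that are known to be controlled by phosphorylation and nuclear entry, which were not measured here.

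**Figure D4:**
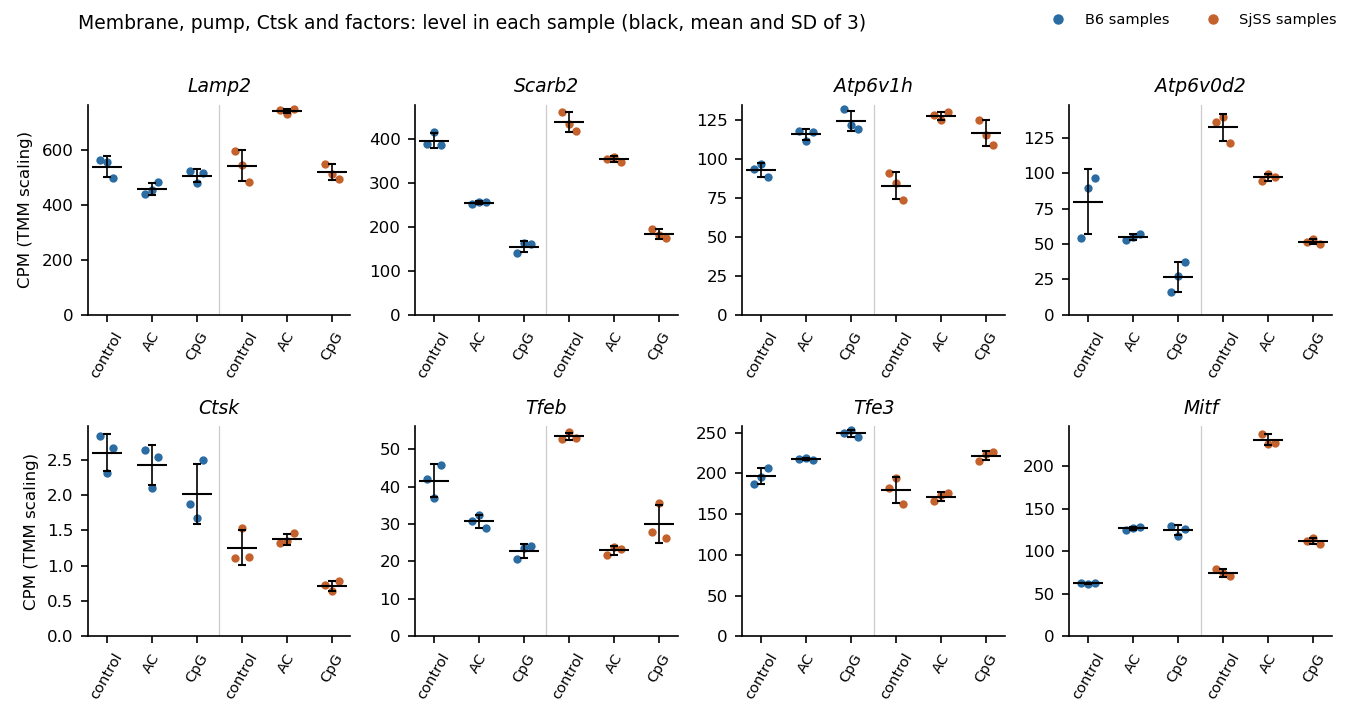
Level in CPM (TMM scaling, axis from 0) of 2 membrane proteins, 2 pump genes, Ctsk and 3 transcription factors in each of the 18 samples, blue for B6 and orange for SjSS, with the mean and SD of 3 samples in black. Scarb2 and Tfeb are below control with both treatments, Atp6v0d2 is lowest with CpG in each strain, Mitf is above control with both, and Ctsk is lower in SjSS than in B6 within each treatment.

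The strains were also compared within each treatment. In control BMDMs 8 members were higher and 4 lower in SjSS, and 33 did not pass, where 9.04% of all tested genes were higher, 10.6% lower and 19.6% either. The higher ones were Ctsl, Gusb, Grn, Acp5, Pld3, Atp6v0d2, Tfeb and Mitf, and the lower ones Ctsc, Ctsk, Asah1 and Lamp1. Leaving out control B6 sample 1 left 5 higher and 1 lower, leaving out control B6 sample 2 or control SjSS sample 3 left 1 lower, and leaving out control SjSS sample 2 left 2 lower. With CpG 7 were higher and 6 lower, and 32 did not pass, where 10.2% of all tested genes were higher, 9.57% lower and 19.7% either, and Ctsk was past the fold threshold, which 0.792% of all genes passed downward. Leaving out CpG treated B6 sample 1 or CpG treated SjSS sample 2 left 4 higher, and leaving out CpG treated SjSS sample 1 or 3 left 3 lower. With library totals 11 were higher and 3 lower with CpG, where the median of all genes was 0.10. With ACs and TMM scaling 26 were higher and 4 lower, and 15 did not pass, where 24% of all tested genes were higher, 25.5% lower and 49.4% either. With library totals 11 were higher and 15 lower with ACs, where the median of all genes was -0.35. Shares of all genes were not counted with library totals. All 6 glycosidases were among the 26, and of these Gusb and Man2b1 were also higher with library totals. Ctsc, Acp5, Pld3, Rnaset2a, Rnaset2b, Lamp2, Scarb2, Atp6v0d2 and Mitf were higher and Ctsk, Atp6v1b2, Tfeb and Tfe3 lower under both scalings. Rnaset2b was past the fold threshold upward, as were 6.24% of all genes, and no member was past it downward, where 2.69% were. The median log2 fold change of the members was 0.02 in control, 0.21 in AC treated and -0.04 in CpG treated BMDMs, against -0.01, -0.05 and 0.01 for all genes.

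As a share of all counts of a sample, which is a scaling by library totals, the 45 genes took 7.42% ± 0.558 in control B6, 6.82% ± 0.253 in AC treated B6 and 4.84% ± 0.445 in CpG treated B6 BMDMs (mean ± SD, n = 3). They took 7.71% ± 0.08 in control SjSS, 6.20% ± 0.171 in AC treated SjSS and 5.09% ± 0.176 in CpG treated SjSS BMDMs. The proteases alone, with Ctsd and Ctsb foremost, were 3.50% of the counts in control B6 and 2.36% in CpG treated B6 BMDMs. The acid phosphatases went the other way, from 0.0419% to 0.0689%. The samples of control B6 BMDMs ran from 6.77% to 7.77% and those of AC treated B6 BMDMs from 6.55% to 7.05%, so these groups overlapped. The AC treated SjSS samples, at 6.01% to 6.31%, lay below all 3 control SjSS samples, at 7.65% to 7.80%. On the same basis the median tested gene fell by 0.43 on the log2 scale in that comparison, and the median member by 0.28.

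**Figure D5:**
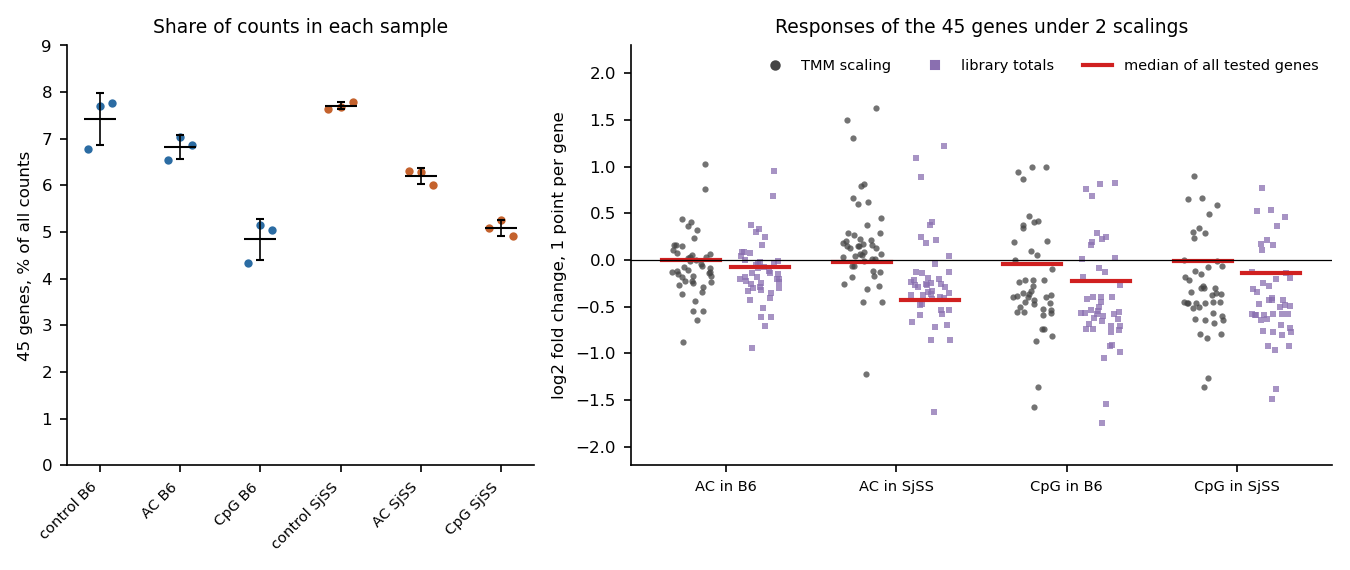
Left, share of all counts taken by the 45 genes in each sample, in percent (axis from 0), with the mean and SD of 3 samples in black, highest in control and lowest in CpG treated BMDMs. Right, log2 fold change of each gene in the 4 responses with TMM scaling (circles) and with library totals (squares), with the median of all tested genes in red, which lies at -0.02 and -0.43 in the AC response of SjSS BMDMs with the members shifted by as much.

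The members were also counted by their E-boxes, as a description. Of the 11 with CACGTG in a promoter window, 2 rose and 3 fell with ACs in B6, and 4 rose and 1 fell with TMM in SjSS BMDMs. Of the 28 with a window and no core, 5 rose and 10 fell in B6, and 14 rose and 5 fell with TMM in SjSS BMDMs, counts that depend on the scaling as given above. With CpG 9 of the 11 fell in each strain, and of the 28 without the core 16 fell in B6 and 17 in SjSS BMDMs. Of all tested genes 29.8% fell with CpG in B6 and 26.4% in SjSS BMDMs. With ACs and TMM scaling 20% of all tested genes rose and 18.3% fell in B6, and 28.6% rose and 29.4% fell in SjSS BMDMs. The 11 had median log2 fold changes of -0.39 and -0.36 in the CpG responses of B6 and SjSS BMDMs, and the 28 had -0.36 and -0.41. The members that rose past the fold threshold, Ctsc, Rnaset2b and Mitf, had windows without the core.

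Beyond the 45, a list of 79 further lysosomal genes (proteases, glycosidases and sulfatases, lipid genes, transporters, sorting receptors, other pump subunits and the lysosomal anchor of TORC1) held 78 that were tested. With ACs 19 of them rose and 35 fell in B6 BMDMs with TMM and 10 rose and 39 fell with library totals, and with TMM scaling 36 rose and 24 fell in SjSS BMDMs, whereas with library totals 7 rose and 53 fell there. With CpG 16 rose and 47 fell in B6, and 12 rose and 49 fell in SjSS BMDMs, so that falls outnumbered rises in the CpG responses here too. The shares of all tested genes given above are with TMM scaling, and none were counted with library totals. Past the fold threshold in the AC responses were Ctse, an aspartic protease, in B6 BMDMs, and Sgsh, a heparan sulfatase, and Slc15a3, a peptide and histidine transporter, in SjSS BMDMs. Ctse had 2.39, 2.42 and 2.65 CPM in control and 0.735, 0.927 and 0.802 in AC treated B6 BMDMs (log2 fold change -1.59, SE 0.17, adjusted p = 3.75e-07), and 2.56, 2.40 and 2.65 in control and 2.20, 2.23 and 2.09 in AC treated SjSS BMDMs, which did not pass with TMM (adjusted p = 0.224) and fell with library totals. Sgsh had 116, 116 and 133 CPM in control and 49.3, 46.6 and 46.6 in AC treated SjSS BMDMs (log2 fold change -1.36, SE 0.12, adjusted p = 9.34e-09), and 118, 128 and 121 and 69.9, 68.4 and 69.5 in the B6 groups (log2 fold change -0.82, SE 0.12, adjusted p = 1.62e-05). Slc15a3 had 799, 855 and 736 CPM in control and 1995, 2062 and 2167 in AC treated SjSS BMDMs (log2 fold change 1.38, SE 0.08, adjusted p = 2.71e-11, and 0.97 on the log2 scale with library totals), and 718, 865 and 889 and 1050.4, 1155 and 1047 in the B6 groups (log2 fold change 0.40, SE 0.08, adjusted p = 0.00061).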

How the data were processed

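RNA of 18 BMDM samples was sequenced by the authors, who used STAR for alignment to mm10 and Partek's E/M tool for gene counts. The estimated counts they deposited were not normalized, covered 20615 genes, were not whole in 41.1% of values (tolerance 1e-06) and were rounded here. Groups came from the labels. Genes were filtered by filterByExpr, scaled by TMM and fitted in 1 quasi-likelihood model of 6 group means (edgeR 4.0.16, R 4.3.3, 12 residual degrees of freedom), with Benjamini-Hochberg adjustment over 15789 genes in each of 9 comparisons. SE was the log2 fold change divided by the root of F. CPM used TMM scaled totals, and levels per kb used GENCODE M21 exon lengths. The members and lists were chosen with earlier results of these data known. Values were given for members past the fold threshold in any comparison, for the highest member and the largest AC response of each role, and for the nucleases and transcription factors, with Ctsl and Lamp2 added after their values were seen. Alternatives were DESeq2 1.42.0, its size factors, no filter, a fit of the groups in question, a block for the replicate number, a fold threshold and each sample left out. Library totals without TMM were added after the data were seen. Fits were checked on simulated data, in which equal numbers of genes rose and fell and samples were not paired. That check therefore does not bear on the choice of scaling or on pairing. Same-numbered control and CpG treated B6 samples deviated together over genes (correlations of 0.137 to 0.264), which paired them, and the block changed no call in the CpG response of B6. The other same-numbered samples of a strain also correlated positively, with the values given below. Replicates of a group correlated at 0.986 to 0.992, and none were identical. Sequences are from RefSeq, and genes of chromosome 18 were not searched for motifs. Protein, methylation and binding were not analysed here.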

Additional observations from a re-analysis of the deposited data

Results flagged for a closer look

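The AC responses of the strains differed past the fold threshold for 2 members, by the interaction term of the edgeR model. For Ctsc the response in SjSS exceeded that in B6 BMDMs by 1.43 on the log2 scale. All 3 AC treated SjSS samples lay above all other samples with TMM scaling, though not with library totals. For Rnaset2b the response in SjSS exceeded that in B6 BMDMs by 1.49, with the 3 AC treated SjSS samples highest and the 3 AC treated B6 samples lowest of the 18. With library totals the differences were 1.09 and 1.14.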

How the results depend on the processing

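Counts of members higher and lower were recomputed under every alternative and compared with those under TMM scaling and an adjusted p under 0.05. Adding the fold threshold left 0 higher and 0 lower in the AC response of B6, 3 and 0 in that of SjSS, 0 and 2 in the CpG response of B6, 0 and 1 in that of SjSS, 0 and 0 between control, 1 and 0 between AC treated and 0 and 1 between CpG treated strains, 2 and 0 in the interaction with AC and 0 and 0 in that with CpG. Library totals without TMM, chosen after seeing the data, gave 8 and 33 in the AC response of SjSS, 11 and 15 between AC treated and 11 and 3 between CpG treated strains, and 6 and 13 in the interaction with AC, and they turned the sign of 23 members in the AC response of SjSS, 21 between AC treated strains and 24 in the interaction with AC. Among those with printed changes these were Ctsl (-0.40), Hexa (-0.26) and Pld4 (-0.20) in the AC response of SjSS and Scarb2 (-0.012) in the interaction. Fitting the compared groups alone left 2 lower between control strains and 3 and 3 between CpG treated strains. In the interaction with CpG 4 were lower by DESeq2, 2 by its size factors and 5 with the replicate block (Mitf, Ctsd, Neu1, Acp5 and Atp6ap1). The cause of these changes was not tested, and shares of all genes were counted with TMM only.

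Leaving out 1 sample at a time gave 6 to 8 higher and 10 to 17 lower in the AC response of B6, 18 to 21 and 6 to 8 in that of SjSS, 11 to 12 and 29 in the CpG response of B6, and 9 and 29 to 30 in that of SjSS. It gave 5 to 8 and 1 to 4 between control, 23 to 27 and 4 to 5 between AC treated and 4 to 8 and 3 to 5 between CpG treated strains, 17 to 22 and 3 to 4 in the interaction with AC, and 1 and 1 to 2 in that with CpG, where 2 were lower without CpG treated B6 sample 1 or 3. The change of Ctsl in the AC response of SjSS, which had not passed, ran from -0.029 to 0.069 and turned without control SjSS sample 3 (-0.026) or AC treated SjSS sample 2 (-0.029). The replicate block lost no call in any comparison and added several. It added Tpp1, Gaa, Dnase2a, Cd68 and Atp6v1b2 in the AC response of B6 and Ctsd, Psap and Atp6v0d2 in that of SjSS. In the CpG response of SjSS it added Ctsh and Neu1. In the interaction with AC it added Ctsb, Tpp1, Psap, Acp5 and Dnase2a. Between strains the block instead joined B6 and SjSS samples of equal number, which come from different mice. Their deviations correlated at -0.0452 to 0.00788 with AC and at -0.0437 to -0.00196 with CpG, so no pairing was seen. That block added Psap and Dnase2a between AC treated strains, and Neu1, Grn and Cd63 between CpG treated strains. Within a strain 32 of 36 checks found a sample closest to its own number, and the misses lay between control and AC treated B6 samples. Same-numbered samples correlated positively in their deviations in every pair of groups of a strain. The correlations were 0.0198 to 0.193 for control and AC treated B6 and 0.0314 to 0.109 for AC and CpG treated B6 samples. In SjSS they were 0.0272 to 0.105 for control and AC and 0.0593 to 0.142 for control and CpG treated samples. For AC and CpG treated SjSS samples they were 0.0594 to 0.107.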
